A study of Mus musculus with 54 samples.

Results

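Day 2 primordial germ cell-like cells (PGCLC) of a mouse line labelled Ovol3KO were compared with wild-type (WT) PGCLC of the same day. The comparison takes the 2 PGCLC libraries whose labels name an Ovol3 mutant and the 2 whose labels name the wild type, 4 of the 54 libraries of the series. Every library carries the strain label C57BL/6 X 129/SvJ, and no other allele, transgene or agent is given for either group. The series follows 9 lines from embryonic stem cells (ESC) through epiblast-like cells (EpiLC) to day 2 PGCLC, with 2 libraries for each line and stage. The ESC and EpiLC libraries of the same 2 lines, and the PGCLC libraries labelled Ovol1KO, Ovol2KO and TKO, are used here for comparison. The labels do not say how Ovol3 was mutated, whether the line is 1 clone or whether the cells were sorted. Nor do they say whether the 2 libraries of a group are separate cultures, and p-values here therefore reflect no more than the spread between libraries, which may be technical.

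The 3 Ovol genes encode DNA-binding zinc finger proteins of the OVO family, known as repressors that hold epithelial cells in their state and that act in germ cells. In the mouse embryo, BMP4 together with WNT signals turns a few epiblast cells into primordial germ cells, while their neighbours in the primitive streak turn into mesoderm under the same signals. Early germ cells carry the factors BLIMP1 (gene Prdm1), PRDM14 and AP2γ (gene Tfap2c), switch mesoderm genes off again and regain genes of naive pluripotency. The culture path from ESC through EpiLC to PGCLC follows these steps.

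Levels are given in TPM, the share of a gene's transcripts in the mRNA, corrected for the gene's length and scaled to the same total in every library. Differences are log2 fold changes of TPM + 1 with their standard errors (SE), Ovol3KO over WT, fitted with limma over the 14416 genes with at least 1 TPM in at least 2 libraries. A gene is called changed, higher or lower at a Benjamini-Hochberg adjusted p under 0.05 over all these genes if its log2 fold change is also at least 1 in either direction. The WT PGCLC libraries held 5217720 and 6943661 reads and the Ovol3KO PGCLC libraries 17247752 and 2581421, as recovered from the TPM values, so the second Ovol3KO library resolves scarce transcripts less well. In all, 625 genes were higher (4.34% of those tested) and 1225 lower (8.5%; 12.8% in either direction), and for 623 and 1223 of them the Ovol3KO and WT values did not overlap. With 2 libraries a group this is common: the values did not overlap for 10093 of all tested genes (70%), called or not. Fold changes were large: 22 genes were higher and 57 lower by at least 3 on the log2 scale. The median of all genes was -0.12, and after quantile scaling, which sets that shift to 0.005, 866 genes were higher (6.01%) and 933 lower (6.47%). Of the lower genes, 22 were the tested Pcdhg genes of the gamma protocadherin cluster, with log2 fold changes of -1.75 to -1.55. They share their 3′ exons and so count as 1 locus, and they were named after their values were seen. In bulk samples, fewer cells of a type and less RNA per cell cannot be told apart.

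Ovol3 itself was listed at 9.39 and 9.66 TPM in WT and 9.84 and 7.25 TPM in Ovol3KO PGCLC, and the groups overlapped (log2 fold change -0.15 ± 0.24, limma adjusted p = 0.635). In EpiLC the values were 13 and 10.4 TPM in WT and 5.8 and 5.66 TPM in Ovol3KO (-0.91 ± 0.15, below the fold threshold). A count over the whole gene does not show a deletion or a frameshift that leaves the transcript in place, so these values neither check the label nor show loss of the gene. Ovol3KO below therefore stands for the line labelled so. Ovol2 overlapped between the groups, with 11.3 and 6.98 TPM in WT and 7.22 and 11.1 TPM in Ovol3KO. Ovol1 was scarce, with 1.02 and 0.325 TPM in WT and 2.16 and 2.24 TPM in Ovol3KO (0.97 ± 0.25, just below the fold threshold; 1.27 without the first WT library, 1.15 under quantile scaling and 1.93 in a test of the recovered reads (limma-voom), called in all 3).

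Genes of chromosomes 8 and 6 stood apart in the Ovol3KO libraries of every stage. Relative to the median of all genes, the 566 genes of chromosome 8 with a mean of at least 5 TPM had a median difference from WT of 0.43 and 0.45 (log2) in ESC, 0.47 and 0.46 in EpiLC and 0.44 in both PGCLC libraries. The 450 such genes of chromosome 6 had 0.35 and 0.34 in ESC, 0.35 and 0.36 in EpiLC and 0.19 and 0.17 in PGCLC. The medians of the other autosomes lay between -0.11 and 0.04 in all 6 libraries. The 349 such genes of chromosome X had -0.05 in both ESC libraries, -0.09 and -0.07 in EpiLC and -0.15 and -0.18 in PGCLC. In PGCLC, 25 of the 535 tested genes of chromosome X were higher (4.67%) and 76 lower (14.2%). Chromosome 18 had 11 of 378 higher (2.91%) and 63 lower (16.7%), the Pcdhg genes among them. Chromosome 8 had 68 of 761 higher (8.94%) and 35 lower (4.6%). Along chromosome 8 in PGCLC, the medians of 10 segments of at least 56 genes ran from 0.32 to 0.57, and 82% of its genes lay above the median of all genes. The 10 segments of chromosome 6, of at least 45 genes, ran from 0.24 to 0.42 in ESC, 0.23 to 0.49 in EpiLC and -0.05 to 0.37 in PGCLC, where 64.7% of its genes lay above that median. Of the Y-linked genes, Eif2s3y, a translation initiation factor gene, was lower in Ovol3KO PGCLC (-2.07 ± 0.24). It had 26.4 and 27.5 TPM in WT and 5.85 and 5.51 TPM in Ovol3KO. Ddx3y (-0.43 ± 0.22), Uty (-0.32 ± 0.20) and Kdm5d (-0.97, named after its values were seen) were not called there. In EpiLC Ddx3y was called lower, with 23.5 and 26.9 TPM in WT and 9.72 and 10.4 TPM in Ovol3KO (-1.24 ± 0.19). In ESC it was at -0.96 ± 0.17, below the fold threshold. PGCLC of the other lines had 5.34 and 4.73 TPM of Ddx3y in Ovol1KO, 0.19 and 0 TPM in Ovol2KO and 1 and 1.77 TPM in TKO. In PGCLC labelled Ovol1KO, Ovol2KO and TKO, chromosome 8 had medians of -0.06 to 0.12 and chromosome 6 of 0.03 at most. Chromosome 16 had 0.33 and 0.30 in Ovol1KO and 0.52 and 0.48 in TKO. DNA copy number was not analysed here, and the part of these shifts in the results was not tested. Without the genes of both chromosomes, 523 genes were higher and 1134 lower in PGCLC of 13035 tested, against 625 and 1225 of 14416 with them. Named genes on chromosome 8 or 6 are marked as such below.

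**Figure D1:**
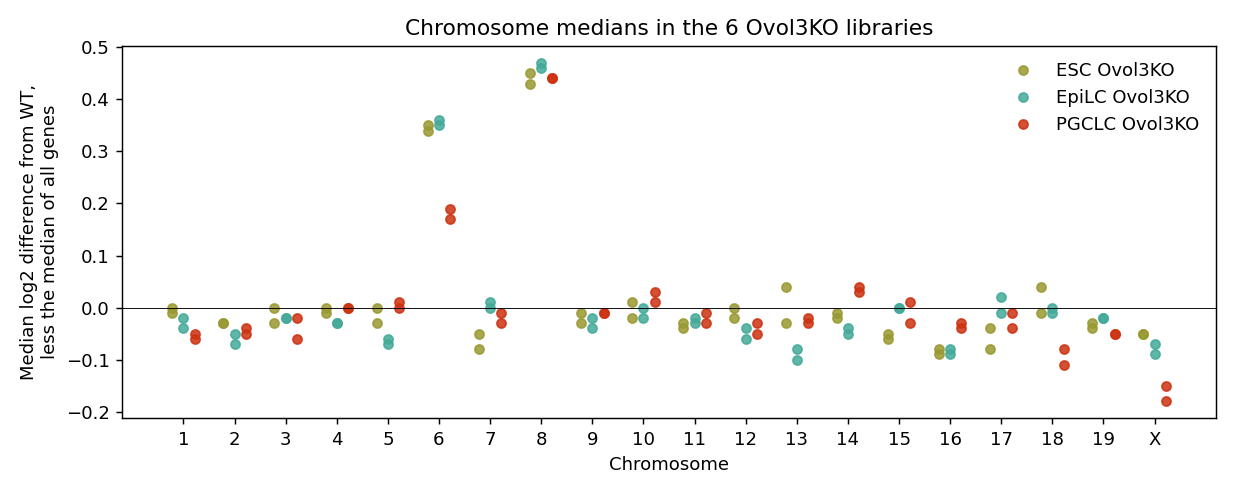
Median log2 difference from the WT mean of the same stage for the genes of each chromosome (horizontal axis), less the median of all genes (vertical axis); each point is 1 Ovol3KO library, coloured by stage. Chromosome 8 lies between 0.43 and 0.47 in all 6 libraries, chromosome 6 between 0.34 and 0.36 in ESC and EpiLC and at 0.17 and 0.19 in PGCLC, and the other autosomes between -0.11 and 0.04. Chromosome X lies between -0.05 and -0.18, lowest in PGCLC.

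The genes of the primitive streak and of newly formed mesoderm were low in Ovol3KO PGCLC. Of 24 tested members of this list, 19 were lower and 0 higher, with a median log2 fold change of -2.11, and without chromosomes 6 and 8 the count was 18 and 0 of 23. T, the Brachyury factor that marks the streak, was the most abundant, with 1158 and 1279 TPM in the WT libraries against 154 and 59.6 TPM in the Ovol3KO libraries (-3.65 ± 0.35, limma adjusted p = 7.91e-06). Both Ovol3KO values lay below both WT values, and above EpiLC of the same line, which had 0.353 and 0 TPM. Mixl1, a homeobox gene of the streak, had 287 and 248 TPM in WT and 12.8 and 5.68 TPM in Ovol3KO (-4.80 ± 0.36). Evx1, a homeobox gene of the posterior streak on chromosome 6, had 178 and 174 TPM against 23.4 and 16.1 TPM (-3.12 ± 0.18). In none of these 3 genes did the groups overlap.

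Msgn1 had the largest fall of all genes. It encodes the mesogenin factor that drives presomitic mesoderm, and it stood at 175 and 105 TPM in WT and had no read in either Ovol3KO library, which makes it at least 252-fold lower against a floor of 3 reads over the group. Mesp1, which marks the earliest cardiac and cranial mesoderm, had 87.2 and 51.1 TPM in WT and 1.79 and 0 TPM in Ovol3KO (-5.34 ± 0.47). Tbx6, a T-box factor of paraxial mesoderm, had 9.09 and 8.8 TPM against 0.351 and 0.474 TPM (-2.82 ± 0.30). Lhx1, a LIM factor of the anterior streak, and Aplnr, the apelin receptor of migrating mesoderm, fell from 11.6 and 11.8 TPM to 0.482 and 0.296 TPM and from 21.2 and 21.9 TPM to 0.405 and 0.228 TPM. Streak genes were not all low. Eomes, a T-box factor needed for early mesoderm and endoderm, had 43.7 and 61.7 TPM in WT and 49.3 and 39 TPM in Ovol3KO, and the groups overlapped (-0.24 ± 0.31). Foxh1, the DNA-binding partner of SMAD2 and SMAD3, had 255 and 264 TPM against 134 and 136 TPM, a difference of -0.94 ± 0.08 that stayed below the fold threshold.

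Among 16 tested genes of paraxial mesoderm and segmentation, 8 were lower and 1 higher (median -1.12). The Notch ligand Dll3 had 28 and 22.5 TPM in WT and 3.34 and 4.89 TPM in Ovol3KO, and Hes1, a Notch target, 167 and 212 TPM against 60.2 and 53.2 TPM. Cyp26a1, the enzyme that breaks down retinoic acid in the streak and tail bud, had 29.3 and 29.5 TPM against 2.97 and 1.83 TPM (-3.18 ± 0.23). The 1 higher member was Tcf15, a somite gene that epiblast cells also express, with 3.17 and 6.08 TPM in WT and 21.1 and 32.3 TPM in Ovol3KO (2.32 ± 0.32).

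The 250 bases before the starts of Msgn1 and Mesp1 are shown because both genes were among the 15 largest falls and both windows hold CTTTGAT, the core to which LEF/TCF factors of the WNT pathway bind. They come from RefSeq (build GRCm38.p6), both genes lie on the minus strand, and the match is in capitals. Mesp1 was chosen for display after the motif was seen in it.
Msgn1, chr12:11208949-11209198: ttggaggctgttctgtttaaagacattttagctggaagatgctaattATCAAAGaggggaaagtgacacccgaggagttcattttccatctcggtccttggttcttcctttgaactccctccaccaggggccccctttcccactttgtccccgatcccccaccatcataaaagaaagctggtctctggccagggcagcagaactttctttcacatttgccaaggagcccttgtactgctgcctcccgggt
Mesp1, chr7:79793591-79793840: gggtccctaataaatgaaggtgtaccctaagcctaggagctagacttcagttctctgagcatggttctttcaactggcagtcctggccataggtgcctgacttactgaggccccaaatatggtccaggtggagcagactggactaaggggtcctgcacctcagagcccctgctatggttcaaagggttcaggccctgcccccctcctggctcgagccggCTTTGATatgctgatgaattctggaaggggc
In Msgn1 the match reads on the opposite strand, 203 to 197 bases before the start, and in Mesp1 on the gene's own strand, 31 to 25 bases before it. CTTTGAT on either strand was found in the same window of 15 of 713 lower genes (2.1%) and 10 of 370 higher genes (2.7%) with 1 promoter in the table, against 188 of all 8731 such tested genes (2.15%). CCGTTA, the core of the site known for OVO proteins, was found in 17 of the lower (2.38%), 14 of the higher (3.78%) and 267 of all these genes (3.06%). These shares describe letters in the windows and show no binding. The promoters of Mixl1 and Dppa3 were not among the sequences used here. Display of the Dnmt3l window had been planned and it is not shown, nor is that of T, which was among the sequences.

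Genes of lateral and extraembryonic mesoderm were low as well. Of 21 tested, 13 were lower and 0 higher (median -1.46), or 12 and 0 of 19 without chromosomes 6 and 8. With a pseudocount of 5, and also in the test of recovered reads, 9 were lower and 0 higher. Hand1, a factor of lateral plate, amnion and trophoblast, had 141 and 80.9 TPM in WT and 2.41 and 1.29 TPM in Ovol3KO (-5.27 ± 0.47). Msx1 and Msx2, homeobox targets of BMP, had 228 and 196 TPM and 155 and 144 TPM in WT against 19.8 and 15.6 TPM and 19 and 12 TPM in Ovol3KO. Foxf1, a lateral plate factor on chromosome 8, had 8.16 and 7.13 TPM against 0.0496 and 0.335 TPM (-2.87 ± 0.21). The groups did not overlap in any of these 4 genes. The calls of Hand1 and Foxf1 ended in the test of recovered reads, though their log2 fold changes there were -5.47 and -5.88. Gata4, a heart and endoderm factor, had 12 and 8.06 TPM in WT and 1.77 and 0.959 TPM in Ovol3KO.

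Trophoblast genes showed 8 lower and 1 higher of 16 tested (median -0.81). Of its lower members, Cdx2, Gata3, Hand1, Krt8, Krt18 and Tfap2a are also in other lists here, and only Dlx3 and Sct are not. Eomes and Tfap2c are shared with other lists as well. Cdx2, known from trophoblast and from posterior mesoderm, had 193 and 169.5 TPM in WT and 7.63 and 7.58 TPM in Ovol3KO (-4.40 ± 0.23, limma adjusted p = 2.22e-08). Gata3, known from trophoblast, amnion and BMP responses, had 38.5 and 37.7 TPM against 2.28 and 2.28 TPM (-3.58 ± 0.21). The defining trophoblast marker Elf5 was at 0 in both WT libraries and at 0.0536 and 0.362 TPM in the Ovol3KO libraries. The 1 higher member was Tfap2c, a germ cell gene as well. Among the 15 largest falls, 4 were Sprr2 genes for small proline-rich proteins of epithelia: Sprr2a3 had 231 and 185 TPM in WT and 1.13 and 1.91 TPM in Ovol3KO. Sprr2a1 and Sprr2a2 hold identical values in every library, so reads of these near-identical copies cannot be assigned to 1 gene. Sprr2b had 71.7 and 54.9 TPM against 0.344 and 0 TPM.

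All 3 Cdx genes, which encode caudal factors, were lower. Besides Cdx2, Cdx1 had 201 and 219 TPM in WT and 55 and 45.1 TPM in Ovol3KO, and Cdx4 3.17 and 1.58 TPM against 0.151 and 0 TPM. The call of Cdx4 (-1.61 ± 0.31) ended with a pseudocount of 5 (-0.53) and in the test of recovered reads (-3.39). Of 31 tested Hox genes, which give cells their position along the body axis, 11 were lower and 0 higher, and 5 were lower with a pseudocount of 5. Hoxb1, the earliest Hoxb gene of the streak, had 71.4 and 64.8 TPM against 5.16 and 1.57 TPM (-4.12 ± 0.30). Hoxb2 had 40.6 and 37.1 TPM against 2.88 and 1.5 TPM (-3.68 ± 0.27). Lower members were not limited to the front of the clusters, with Hoxb8 at -1.57 ± 0.31 and Hoxd9 at -2.05 ± 0.34. Both calls ended with a pseudocount of 5 (-0.50 and -0.74), and that of Hoxd9 also in the test of recovered reads (-4.05). No Hoxc gene was called among 9 tested.

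**Figure D2:**
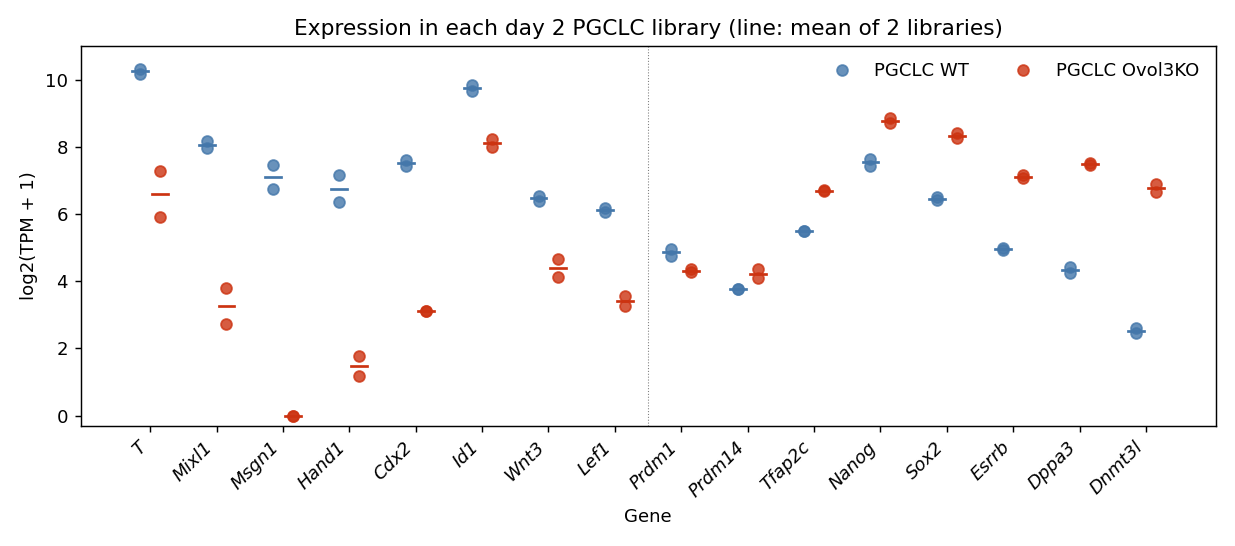
Level of 16 genes in each day 2 PGCLC library on a log2(TPM + 1) axis; points are libraries, short lines the mean of 2, blue WT and red Ovol3KO. The 8 genes on the left, of the streak, mesoderm, BMP and WNT groups, lie lower in Ovol3KO with no overlap; on the right Prdm1 lies slightly lower and Prdm14, Tfap2c, Nanog, Sox2, Esrrb, Dppa3 and Dnmt3l lie higher.

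Most WNT targets were lower. Of 20 tested WNT targets, 14 were lower and 0 higher (median -1.60). Axin2, a feedback inhibitor that β-catenin induces in most tissues, had 96.2 and 89.6 TPM in WT and 27.4 and 21.6 TPM in Ovol3KO (-1.89 ± 0.14). Lef1, a DNA-binding partner of β-catenin and itself a target, had 71.6 and 65.7 TPM against 10.7 and 8.6 TPM (-2.72 ± 0.16). Sp5, a zinc finger target, had 84.4 and 96.9 TPM against 29.8 and 20.9 TPM (-1.81 ± 0.16), and the groups overlapped in none of the 3. Nkd1, a feedback inhibitor on chromosome 8, had 17.3 and 13.6 TPM against 2.67 and 2.74 TPM. The cyclin gene Ccnd1, also a target, was not called, with 103 and 103 TPM in WT and 102 and 105 TPM in Ovol3KO.

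Among 27 tested WNT ligands, receptors and modulators, 13 were lower and 2 higher (median -0.82). Wnt3, the ligand that the embryo needs to form a streak, had 83.2 and 91.4 TPM in WT and 24.3 and 16.4 TPM in Ovol3KO (-2.07 ± 0.18). Wnt3a, a ligand of posterior mesoderm, had 33.4 and 30.8 TPM against 2.1 and 2.66 TPM (-3.29 ± 0.42). Wnt5a, a ligand of the non-canonical pathway, had 26.2 and 23.6 TPM against 0.165 and 0 TPM (-4.58 ± 0.30). Rspo3, an R-spondin that strengthens WNT signals, fell from 66.6 and 56.2 TPM to 3.87 and 1.02 TPM, and the receptor Fzd10 from 188 and 192 TPM to 46.2 and 37.8 TPM. Not every ligand was low: Wnt8a had 56.9 and 62.7 TPM in WT and 44.1 and 36.4 TPM in Ovol3KO, which was not called (-0.56 ± 0.25). The mRNA of β-catenin itself, Ctnnb1, had 624 and 645 TPM against 466 and 488 TPM, a difference of -0.41 ± 0.04 below the fold threshold.

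Of 17 tested BMP targets, 8 were lower and 0 higher (median -0.98, against -0.12 for all genes). Id1, which encodes an inhibitor of differentiation factors and is induced directly by BMP, had 810.0 and 905 TPM in WT and 298 and 255 TPM in Ovol3KO (-1.63 ± 0.12, limma adjusted p = 1.5e-07). Id2 and Id3 differed by -0.89 ± 0.12 and -0.49 ± 0.07, both below the fold threshold, with 443 and 480.3 TPM of Id3 left in Ovol3KO. Smad6, an inhibitor of the pathway that BMP induces, had 36.4 and 32.5 TPM against 9 and 7.94 TPM (-1.91 ± 0.18). Among ligands, receptors and mediators, the antagonist gene Nog was lower, with 4.38 and 3.6 TPM against 0.752 and 0 TPM (-1.91 ± 0.24). Of the 16 tested genes of this list, 3 were lower and 0 higher (18.8% in either direction, against 12.8% of all tested genes). That count was 7 with a pseudocount of 0.1 and in the test of recovered reads, 5 without the second WT library and 0 with a pseudocount of 5, where Nog had -0.74. Bmp4 had 34 and 22.6 TPM in WT and 22.5 and 23.6 TPM in Ovol3KO, and the groups overlapped (-0.25 ± 0.30).

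The Nodal and TGF-beta list split, with 6 of 22 tested members higher and 5 lower (median -0.35), or 3 and 5 with a pseudocount of 5. Nodal itself had 77.2 and 112 TPM in WT and 88.9 and 85.4 TPM in Ovol3KO and was not called (-0.09 ± 0.16). Its secreted inhibitors were higher: Lefty1 had 48.6 and 86.3 TPM against 196 and 245 TPM (1.74 ± 0.28), and Lefty2 81.6 and 105 TPM against 212 and 194 TPM (1.12 ± 0.20; 0.94 without the first WT library, below the fold threshold). Gdf3, a TGF-beta family gene of pluripotent cells on chromosome 6, had 19.97 and 19.8 TPM in WT and 125 and 157 TPM in Ovol3KO (2.76 ± 0.25). On the lower side, the ligand gene Tgfb1 had 112 and 93.7 TPM against 11.8 and 12.4 TPM (-2.98 ± 0.23), and Fst, which encodes the activin antagonist follistatin, 147 and 158 TPM against 39.6 and 28.4 TPM (-2.15 ± 0.18).

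FGF and ERK genes also split. Of 24 tested, 3 were higher and 6 lower (median -0.27). Fgf8, the FGF of the streak, had 185 and 253 TPM in WT and 53.8 and 32.7 TPM in Ovol3KO (-2.34 ± 0.22), while Fgf4, the FGF of pluripotent cells, had 14 and 13.4 TPM against 59.9 and 79.4 TPM (2.25 ± 0.24). Dusp6, a phosphatase that dampens ERK and that ERK induces, had 379 and 329.8 TPM against 113 and 100.3 TPM (-1.72 ± 0.14), and the ETS factor gene Etv4 44.5 and 42.7 TPM against 103 and 96.8 TPM (1.18 ± 0.16). Of 17 tested immediate early genes, which cells switch on within minutes of a stimulus, 10 were lower and 0 higher (median -1.51). In the test of recovered reads 8 were lower and 0 higher, and the median ran from -1.95 to -1.17 with 1 library left out. Fos had 526 and 666 TPM in WT and 105 and 46.2 TPM in Ovol3KO (-3.07 ± 0.41), and Jun 89.6 and 127 TPM against 23.7 and 18.1 TPM (-2.31 ± 0.27). Such genes also respond to the handling of cells, and its part in the result was not tested.

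Genes of epithelial to mesenchymal transition (EMT) and of mesenchymal cells showed 12 lower and 0 higher of 21 tested (median -1.52). These counts were 8 and 0 with a pseudocount of 5 and 13 and 1 in the test of recovered reads. Cdh2, N-cadherin, had 89.3 and 66.7 TPM in WT and 5.96 and 6.3 TPM in Ovol3KO (-3.46 ± 0.27). Snai1, a repressor of epithelial genes that streak cells express, had 62.9 and 46.8 TPM against 6.98 and 8.72 TPM (-2.65 ± 0.16), and the filament gene Vim 570.1 and 452 TPM against 114 and 95.3 TPM (-2.27 ± 0.11, limma adjusted p = 9.27e-09). Zeb1, another such repressor, was scarce in both, with 1.02 and 0.379 TPM in WT and 1.55 and 2.24 TPM in Ovol3KO (0.79 ± 0.23, not called; 1.06 without the first WT library, 1.43 with a pseudocount of 0.1 and 1.49 in the test of recovered reads, called in all 3). The feeder or fibroblast markers summed to 23.4 and 16 TPM over 7 markers in WT and 8.39 and 8.68 TPM in Ovol3KO, with Postn at 0 in all 4 libraries and Lum at 0 in both WT libraries. Their part in the result was not tested.

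Of 34 tested epithelial genes, 3 were higher and 4 lower (20.6% in either direction, against 12.8% of all tested genes), with a median of -0.09, which became 0.07 under quantile scaling. Cdh1, E-cadherin, on chromosome 8, had 312 and 319.7 TPM in WT and 355 and 348 TPM in Ovol3KO (0.16 ± 0.11, limma adjusted p = 0.29). Grhl2, a factor that maintains epithelia, had 11.1 and 12 TPM against 11.8 and 11.2 TPM, and the splicing regulator gene Esrp1 54.9 and 49.3 TPM against 53.8 and 54.9 TPM. The 4 lower members were the keratin genes Krt8, Krt18 and Krt19 and the desmosome gene Dsp. Krt8 had 580.2 and 530.4 TPM in WT and 93.8 and 64.9 TPM in Ovol3KO (-2.81 ± 0.23), Krt19 153 and 114 TPM against 17.4 and 7.1 TPM (-3.44 ± 0.31) and Dsp 119 and 92.6 TPM against 17 and 10.4 TPM (-2.88 ± 0.19). The higher members were Esrp2, on chromosome 8, with 6.62 and 6.71 TPM against 15.9 and 16.4 TPM, and the grainyhead genes Grhl1 and Grhl3, with 10.3 and 10.2 TPM of Grhl3 in WT and 22.9 and 24.3 TPM in Ovol3KO. The call of Grhl1 (1.34 ± 0.28) ended without the second Ovol3KO library (0.98), and with a pseudocount of 5 none of the 3 higher members was called.

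**Figure D3:**
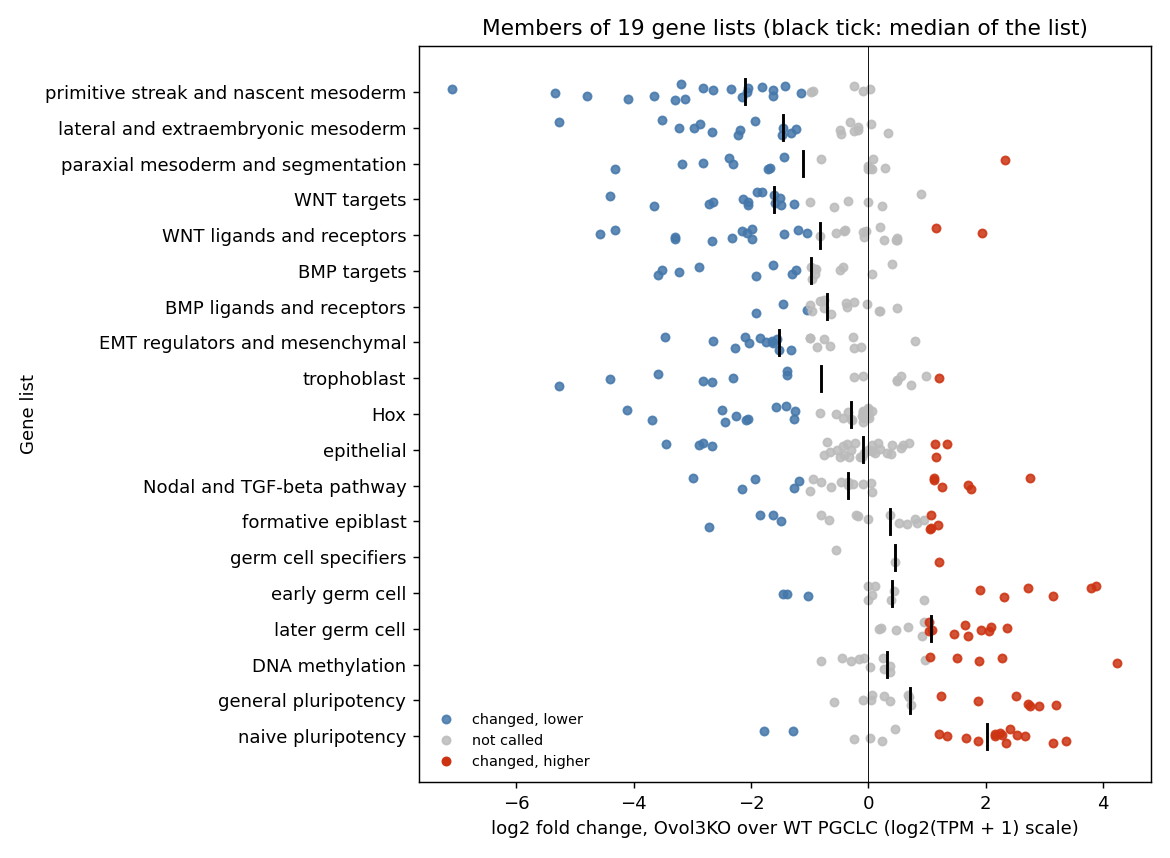
Log2 fold change (horizontal axis) of every tested member of 19 gene lists (rows); blue points were called lower, red points higher and grey points were not called, and the black tick is the median of the list. Medians run from -2.11 for the primitive streak list to 2.01 for naive pluripotency.

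Genes of naive pluripotency were high in Ovol3KO PGCLC. Of 20 tested members, 14 were higher and 2 lower, with a median of 2.01, and without chromosomes 6 and 8 the count was 12 and 2 of 18. Esrrb, an orphan nuclear receptor of naive cells, had 30.9 and 29.2 TPM in WT and 141 and 134 TPM in Ovol3KO (2.16 ± 0.28, limma adjusted p = 1.84e-05). Sox2 had 84.4 and 89.1 TPM against 303 and 338 TPM (1.87 ± 0.21), and Nr0b1, also called Dax1, 7.97 and 8.93 TPM against 54.2 and 64.7 TPM (2.67 ± 0.27). Zfp42, the Rex1 gene on chromosome 8, had 18.7 and 16.8 TPM against 86.6 and 78.6 TPM (2.16 ± 0.26), and the groups overlapped in none of these. Spp1, which encodes osteopontin, had 32 and 24.7 TPM in WT and 238 and 277 TPM in Ovol3KO (3.15 ± 0.21). Klf4 was closer to WT, with 31.7 and 43.2 TPM against 91.2 and 83.1 TPM (1.21 ± 0.24), and its call ended without the first WT library (0.99). The LIF effector gene Stat3 was not called, with 53.7 and 50.3 TPM in WT and 42.5 and 44.9 TPM in Ovol3KO. The 2 lower members were Tbx3, which is named to complete the count after its values were seen, and Gbx2, a target of LIF signals in ESC. Gbx2 had 66.8 and 63.8 TPM against 19.4 and 17.2 TPM (-1.78 ± 0.16).

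Among 16 tested genes of general pluripotency, 7 were higher and 0 lower (median 0.71), or 5 and 0 of 14 without chromosomes 6 and 8. Nanog, on chromosome 6, had 172 and 198 TPM in WT and 459 and 419 TPM in Ovol3KO (1.24 ± 0.21). Pou5f1, the Oct4 gene, had 1441 and 1638 TPM against 1844 and 1835 TPM, a difference of 0.26 ± 0.09 below the fold threshold. Utf1, a chromatin factor of pluripotent cells, had 97.7 and 116 TPM against 527 and 704 TPM (2.51 ± 0.27), and Dppa2, which primes genes in pluripotent cells together with Dppa4, 20.2 and 17 TPM against 146 and 145 TPM (2.90 ± 0.30). The formative genes, which mark EpiLC, went both ways: of 19 tested, 4 were higher and 4 lower (median 0.36), and 1 was higher without the second Ovol3KO library or without the first WT library. Dnmt3b had 130.3 and 148 TPM in WT and 255 and 328 TPM in Ovol3KO (1.05 ± 0.13; 0.87 without the second Ovol3KO library and 0.96 without the first WT library, both below the fold threshold), and Fgf5 6.73 and 11.7 TPM against 17.6 and 18.5 TPM (0.95 ± 0.35, not called; 1.30 without the second WT library, 1.15 under quantile scaling and 1.01 in the test of recovered reads, called in all 3). Sox3 and Sox4 were lower, with 58.1 and 54.9 TPM of Sox4 in WT and 18.1 and 17.1 TPM in Ovol3KO.

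The 3 genes that specify germ cells did not move together. Prdm1 had 30.3 and 25.9 TPM in WT and 18.2 and 19.4 TPM in Ovol3KO, a lower level that did not reach the fold threshold (-0.55 ± 0.21, limma adjusted p = 0.039). Prdm14 had 12.5 and 12.7 TPM against 19.6 and 16 TPM, a higher level that did not reach the fold threshold either (0.46 ± 0.15, limma adjusted p = 0.0191). Tfap2c was higher, with 44.1 and 43.7 TPM in WT and 102 and 103 TPM in Ovol3KO (1.20 ± 0.20, limma adjusted p = 0.000179). All 3 genes were low in EpiLC of both lines, where Tfap2c had 0.38 and 1.92 TPM in WT and 2.54 and 1.91 TPM in Ovol3KO, and Prdm14 had 0 and 0.0463 TPM in WT and 0 and 0.122 TPM in Ovol3KO.

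Of 16 tested early germ cell genes, 6 were higher and 3 lower (median 0.41), or 5 and 3 of 14 without chromosomes 6 and 8. Dppa3, the Stella gene on chromosome 6, had 18 and 20.4 TPM in WT and 183 and 173 TPM in Ovol3KO (3.15 ± 0.26, limma adjusted p = 2.32e-07). This was above its level in ESC of either line, 111 and 143 TPM in WT and 137 and 143 TPM in Ovol3KO. Rhox6 and Rhox9, homeobox genes of the X chromosome, had 1.95 and 1.45 TPM and 2.87 and 1.07 TPM in WT against 31 and 47 TPM and 28.8 and 50.7 TPM in Ovol3KO, though reads of this gene family can be shared between copies. Nanos3, an RNA-binding factor that keeps germ cells alive, on chromosome 8, had 9.81 and 9.05 TPM against 15.5 and 11.1 TPM and was not called (0.44 ± 0.51). Kit, the receptor of migrating germ cells, had 8.78 and 12.1 TPM in WT and 19.3 and 22.8 TPM in Ovol3KO (0.95 ± 0.21, below the fold threshold; called at 1.07 without the first Ovol3KO library, 1.17 without the second WT library, 1.16 under quantile scaling and 1.01 with a pseudocount of 0.1). The lower members were Tfap2a, Dnd1, which is named to complete the count after its values were seen, and Tdrd5, with 34.7 and 40.2 TPM of the piRNA pathway gene Tdrd5 in WT and 14 and 12.2 TPM in Ovol3KO. With a pseudocount of 5, 6 members were higher and 1 lower. The 8 PGCLC markers summed to 167 and 177 TPM in WT and 379 and 370 TPM in Ovol3KO, and none was at 0. The higher sum was carried by Dppa3 and Tfap2c, the only markers of the 8 called higher (3.15 and 1.20). Dnd1 was lower (-1.03), and the rest were not called, from -0.55 for Prdm1 to 0.95 for Kit. These 8 markers do not set PGCLC apart from ESC, where they summed to 397 and 414 TPM in WT and 363 and 374 TPM in Ovol3KO. In EpiLC they summed to 36.6 and 40.1 TPM in WT and 57.1 and 45.1 TPM in Ovol3KO.

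Genes of later germ cells, active in meiosis or in the silencing of transposons, were higher at low levels: 10 of 16 tested were higher and 0 lower (median 1.06), and 1 was higher with a pseudocount of 5, which damps low genes. Ddx4, the Vasa helicase, had 5.32 and 3.2 TPM in WT and 13.6 and 18 TPM in Ovol3KO (1.69 ± 0.23). Hormad1, a protein of meiotic chromosome axes, had 0 and 0.328 TPM against 5.15 and 4.66 TPM (2.36 ± 0.27), and Piwil2, a piRNA-binding protein, 0.171 and 0.384 TPM against 4.39 and 4.47 TPM (2.09 ± 0.22). Hormad1 was expressed in EpiLC, where it had 18.8 and 18 TPM in WT and 14.5 and 13 TPM in Ovol3KO. From EpiLC to PGCLC, 13 of the 16 fell in WT and 4 in Ovol3KO. Tdrd12, another piRNA pathway gene, which the list did not hold, was among the 15 largest rises with 3.12 and 3.49 TPM in WT and 37.4 and 48.2 TPM in Ovol3KO (3.34 ± 0.31).

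Of 16 tested genes of DNA methylation and its removal, 5 were higher and 0 lower (median 0.31). Dnmt3l, the cofactor of the de novo methyltransferases, had the second largest rise of all genes, with 5.05 and 4.48 TPM in WT and 99.2 and 117 TPM in Ovol3KO (4.24 ± 0.26, limma adjusted p = 1.5e-08). Tet1 and Tet2, which oxidise methylcytosine, had 22.1 and 19.7 TPM and 3.72 and 3.53 TPM in WT against 61.6 and 61 TPM and 21 and 21.6 TPM in Ovol3KO. Zfp57, which protects methylation at imprinted loci, had 35.8 and 27.6 TPM against 124 and 116 TPM (1.89 ± 0.18). The maintenance genes Dnmt1 and Uhrf1 were not called, with 209 and 207 TPM of Uhrf1 in WT and 240.4 and 261 TPM in Ovol3KO. The largest rise of all was Khdc3, a maternal-effect gene that ESC also express, with 0.25 and 0 TPM in WT and 24.8 and 40.5 TPM in Ovol3KO (4.87 ± 0.28).

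Fewer genes differed before PGCLC induction. In EpiLC, 249 genes were higher (1.73% of those tested) and 162 lower (1.12%; 2.85% in either direction) in Ovol3KO, and in ESC 94 were higher (0.652%) and 172 lower (1.19%; 1.85% in either direction). The EpiLC count rests on the libraries used: without the second WT library it was 429 and 267, and without the second Ovol3KO library 390 and 247. The difference of the Ovol3KO effect between PGCLC and EpiLC was tested itself, in a fit of all 54 libraries that uses the same PGCLC libraries as above, and 707 genes were called higher in PGCLC relative to EpiLC (4.9%) and 1612 lower (11.2%; 16.1% in either direction). Under quantile scaling these counts were 977 and 1171. For the streak list 20 of 24 tested members were lower in that difference and 0 higher, with 0 called in EpiLC. For the naive list 10 were higher and 4 lower in that difference, and 7 of the 20 were already higher in EpiLC. Esrrb, for instance, had 10.7 and 11.3 TPM in WT and 79.99 and 48 TPM in Ovol3KO EpiLC (2.39 ± 0.18), and Sox2 67.9 and 67.8 TPM against 160.3 and 134 TPM (1.10 ± 0.10). In ESC, no naive gene was called, and Dnmt3l was higher, with 13.6 and 14 TPM in WT and 47.4 and 47.9 TPM in Ovol3KO (1.72 ± 0.16).

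**Figure D4:**
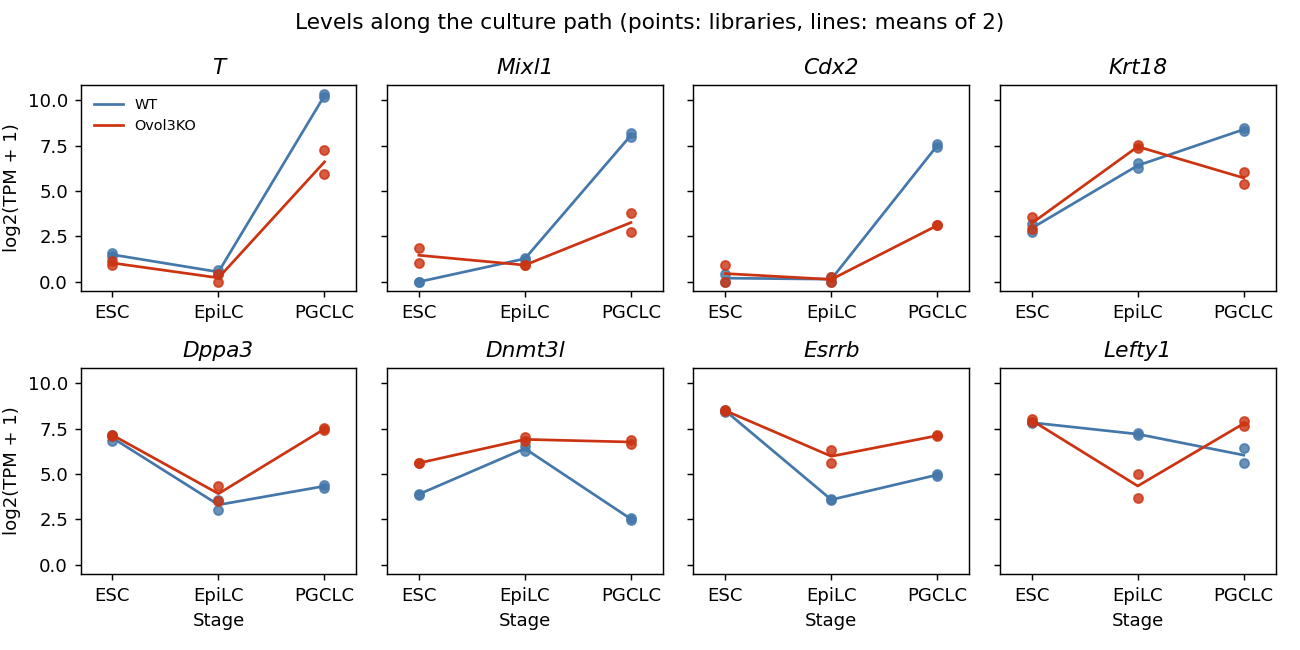
Levels of 8 genes in ESC, EpiLC and PGCLC on a log2(TPM + 1) axis; points are libraries, lines join the means of 2 libraries, blue WT and red Ovol3KO. The lines for T and Cdx2 part in PGCLC, Dppa3 is low in EpiLC of both lines and higher in Ovol3KO than in WT in PGCLC, and Krt18 and Lefty1 differ in opposite directions in EpiLC and PGCLC.

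The step from EpiLC to PGCLC was also compared within each line. In WT, 1944 genes rose (13.5%) and 1099 fell (7.62%), and in Ovol3KO 874 rose (6.06%) and 975 fell (6.76%); under quantile scaling the WT counts were 1383 and 1518 and the Ovol3KO counts 869 and 1058. These 2 comparisons share no library. Of the rises, 524 were shared, which is 27% of those in WT and 60% of those in Ovol3KO, and 43 of the WT rises were falls in Ovol3KO. Of the falls, 464 were shared, which is 42.2% of those in WT and 47.6% of those in Ovol3KO, and 14 of the WT falls were rises in Ovol3KO. The genes that rose in WT had a median log2 change of 1.47 there and of 0.52 in Ovol3KO, and the genes that fell in WT had a median of -0.87 in Ovol3KO. These genes were chosen for their change in WT, so their medians in Ovol3KO are a description. Of 24 streak genes, 20 rose in WT and 13 in Ovol3KO. Mixl1 rose by 6.79 ± 0.27 in WT and 2.34 ± 0.27 in Ovol3KO, so it was induced in both lines to different levels. Cdx2 rose by 7.36 ± 0.32 and 2.97 ± 0.32, and Id1 by 8.43 ± 0.31 and 6.02 ± 0.31. Dnmt3l fell by 3.88 on the log2 scale in WT and did not change beyond the threshold in Ovol3KO (-0.14 ± 0.19).

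The 2 Ovol1KO PGCLC libraries differed from each other in mesoderm genes, with 120.0 and 228 TPM of Mixl1 and 16.2 and 106 TPM of Msgn1. The comparisons of PGCLC with the other mutant lines use the same Ovol3KO libraries as the comparison with WT. Compared directly with Ovol1KO PGCLC, Ovol3KO had 294 genes higher (2.04%) and 966 lower (6.7%), or 520 and 628 under quantile scaling. Of the streak list, 17 of 24 were lower than in Ovol1KO and 0 higher, and of the naive list 10 of 20 were higher and 1 lower. Dppa3 had 68.5 and 32.6 TPM in Ovol1KO, between WT and Ovol3KO (Ovol3KO over Ovol1KO 1.89 ± 0.26). The log2 fold change of Mixl1, Ovol3KO over Ovol1KO, was -4.12 ± 0.36 (limma adjusted p = 5.77e-06). Wnt3a had 4.01 and 17.4 TPM in Ovol1KO, below both WT values and above both Ovol3KO values (Ovol3KO over Ovol1KO -1.51 ± 0.42).

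Against Ovol2KO, Ovol3KO had 1104 genes higher (7.66%) and 1976 lower (13.7%), and against TKO 1151 higher (7.98%) and 2183 lower (15.1%); under quantile scaling these were 1396 and 1466, and 1529 and 1604. Hand1 had 1007 and 1197 TPM in Ovol2KO and 1308 and 1469 TPM in TKO, above WT, where Ovol3KO had 2.41 and 1.29 TPM. Dppa3 had 2.69 and 2.08 TPM in Ovol2KO and 0.947 and 0.671 TPM in TKO, below WT. Prdm1 had 21 and 13.3 TPM in Ovol2KO, 10.1 and 10.9 TPM in TKO and 18.2 and 19.4 TPM in Ovol3KO, and Ovol3KO and Ovol2KO overlapped (Ovol3KO over Ovol2KO 0.16 ± 0.21). Mixl1 was lower in Ovol3KO than in either line, with 139 and 179 TPM in Ovol2KO and 162 and 135 TPM in TKO (Ovol3KO over TKO -3.96 ± 0.36, limma adjusted p = 1.89e-06).

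**Figure D5:**
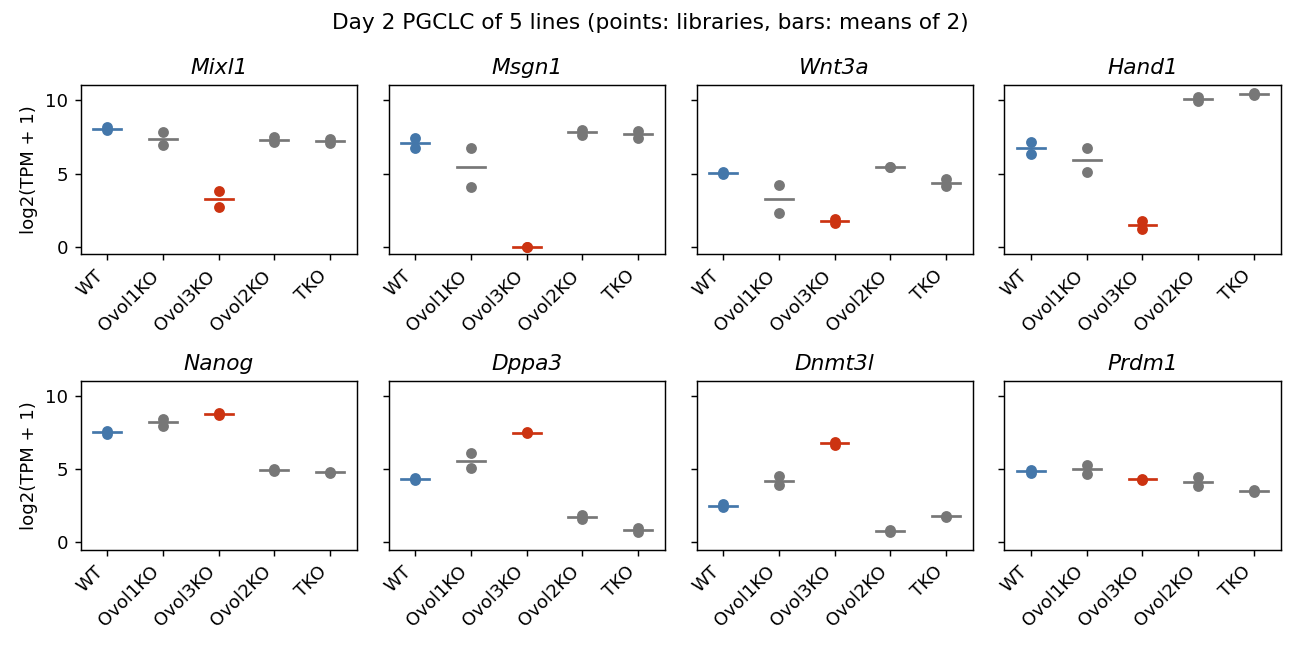
Levels of 8 genes in day 2 PGCLC of 5 lines on a log2(TPM + 1) axis; points are libraries, bars the mean of 2, blue WT, red Ovol3KO and grey the other mutant lines. Ovol3KO has the lowest Mixl1, Msgn1, Wnt3a and Hand1 and the highest Nanog, Dppa3 and Dnmt3l of the 5 lines, while its Prdm1 lies between WT and TKO.

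Sums of cell type markers were also compared, and many of these markers are in the lists above. The 7 streak and mesoderm markers summed to 1901 and 1834 TPM in WT and 221 and 106 TPM in Ovol3KO, and the 7 naive ESC markers to 315 and 329 TPM against 794 and 721 TPM. The 6 EpiLC markers summed to 319 and 417 TPM against 652 and 835 TPM. Of these, Otx2 (1.06), Dnmt3b (1.05) and Pim2 (1.07) were called higher, and Fgf5, Pou3f1 and Dnmt3a were not called. The formative list had 4 higher and 4 lower genes of 19 tested, and these markers include none of its lower genes. The 5 endoderm markers summed to 28.7 and 20.1 TPM in WT and 4.29 and 4.15 TPM in Ovol3KO. Of these, Sox17 (-0.56), Foxa2 (-0.27) and Sox7 (-0.12), named to complete the set, were not called. The others, among them Gata4, are also in the lateral mesoderm list. Of 13 tested genes of endoderm and anterior streak, 2 were higher and 4 lower (median -0.27). The 4 trophoblast markers summed to 238 and 213 TPM in WT and 11.4 and 12.3 TPM in Ovol3KO, mostly from Cdx2 and Gata3. Neural markers stayed below 5 TPM in sum, with 1.36 and 0.89 TPM in WT and 1.38 and 4.64 TPM in Ovol3KO. The share of each cell type in the cultures was not measured here, and its part in the results was not tested.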

How the data were processed

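Poly(A) RNA-seq libraries (NEBNext Ultra Directional kit, per the labels' protocols) were analysed from 1 table of 20036 genes in 54 libraries, in TPM computed by the authors before they deposited it. HISAT2, featureCounts, edgeR and the mouse build mm10 are named in the submitters' processing notes, with no versions. Each value above 0 was a whole multiple of the worth of 1 read for its gene (100% within a tolerance of 0.01, over 17973 genes), so whole reads and depths were recovered from the TPM. Depth over the series ran from 2158379 to 26728538 reads.

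Samples were grouped by their labels. Log2(TPM + 1) of the 14416 genes with at least 1 TPM in at least 2 libraries was fitted with limma 3.58.1 in R 4.3.3 (trend and robust), with 9 groups and 18 libraries per stage and 9 residual degrees of freedom. The difference between stages and the changes from EpiLC to PGCLC were fitted over all 54 libraries (27 residual degrees of freedom). Every adjusted p is from limma with Benjamini-Hochberg adjustment over all tested genes. In simulated data of this comparison (14416 genes), 87 of 100 genes changed by 1.5 on the log2 scale and 100 of 100 changed by 3 were called, and 13 of 14216 unchanged genes (0.0914%). The simulation gave every gene the same spread and all other groups the same means, and it changed no scarce gene. These shares therefore do not cover scarce genes or groups whose libraries differ more.

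The gene lists and members were chosen with earlier results of these data known, and lists share genes. Named genes were the Ovol genes, the 15 largest rises and falls, up to 8 called and 4 abundant uncalled members of each list, the 8 largest differences between stages each way, and a set of standard markers; exceptions are said where they occur. Alternatives were other pseudocounts, quantile scaling, no filter or another filter, other sets of libraries in the fit, no fold threshold, a replicate block, each library left out, and limma-voom on the recovered reads. Leaving out the genes of chromosomes 6 and 8 was added after seeing the data. Gene positions came from RefSeq (GRCm38.p6), which placed 14369 of the tested genes (99.7%).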

Additional observations from a re-analysis of the deposited data

Results flagged for a closer look

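The effect of Ovol3KO, as the log2 difference from WT, was not the same in PGCLC and EpiLC: 2319 genes differed between the stages in the fit of all 54 libraries. In PGCLC 1850 genes were called (12.8% of those tested) and in EpiLC 411 (2.85%). Of the genes called in both stages, 36 had opposite directions, 13 higher in PGCLC and lower in EpiLC and 23 the other way. How many were called in both is not given here, so the share of opposite directions is not known. Lefty1, the Nodal inhibitor, had 154 and 138 TPM in WT and 11.9 and 30.9 TPM in Ovol3KO EpiLC, and its effect in PGCLC exceeded that in EpiLC by 4.60 on the log2 scale. For the other named genes the effect in PGCLC minus that in EpiLC was -4.68 for Krt19, -3.71 for Krt18, -4.62 for Fos, -4.02 for Tgfb1 and -2.98 for Dusp6. In these 5 genes Ovol3KO was above WT in EpiLC, as with 77 and 90.9 TPM against 182 and 164 TPM for Krt18, and below it in PGCLC. The 2 Ovol3KO EpiLC libraries behind these effects differed in their recovered reads by a chi-square of 6.47 per degree of freedom, against 1.76 to 3.92 in the other 5 pairs of ESC, EpiLC and PGCLC, a measure that also grows with depth. Their Pearson correlation across genes on the log2 scale was 0.9938, against 0.9903 to 0.993 in the other pairs.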

How the results depend on the processing

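Of 104 called genes named here, 88 kept their call under every alternative run for them, and the values of most others stand beside them above. Many of the 104 were named for their large fold changes, so this share does not describe all called genes. With a pseudocount of 5, the calls of Hormad1 (0.94), Grhl3 (0.91), Esrp2 (0.86), Piwil2 (0.84), Grhl1 (0.70) and Tfap2a (-0.72) also ended. The 1850 genes called in PGCLC became 832 (274 higher and 558 lower) with a pseudocount of 5, which damps genes of few TPM, and 6659 (2299 and 4360) with no fold threshold. With a pseudocount of 0.1, the EpiLC count of 411 became 861 and the ESC count of 266 became 409. With 1 library left out, the count ran from 1645 to 2168 in PGCLC, 335 to 696 in EpiLC and 244 to 362 in ESC. It was 637 in EpiLC without the second Ovol3KO library and 696 without the second WT library. Directions turned only in genes that were not called: Grhl2 was 0.20 under quantile scaling, 0.09 in the test of recovered reads and between -0.06 and 0.05 with 1 library left out. Under the same settings Ovol3 was 0.10, 0.05 and between -0.35 and 0.04. Ovol2 was -0.09 in the test of recovered reads and between -0.30 and 0.33 with 1 library left out. In the same way Bmp4 lay between -0.54 and 0.03, Eomes between -0.48 and 0.01, Nodal between -0.35 and 0.17, Esrp1 between -0.01 and 0.14 and Ccnd1 between -0.02 and 0.02. For the changes of direction the cause was not tested. Replicate numbers did not pair the libraries (deviations of equal numbers correlated at -0.01 between Ovol3KO and WT PGCLC), and a fit with the replicate block called 1848 genes, 623 higher and 1225 lower. The second Ovol3KO library, of 2581421 reads, limits what can be seen of genes below about 1 TPM. With 2 libraries a group, an exact permutation test cannot go below 0.33.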

Other observations

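Of 24 tested imprinted genes, which are expressed from 1 parental copy, 9 were lower and 1 higher in Ovol3KO PGCLC (median -0.67). Peg10, a paternally expressed gene on chromosome 6, had 752 and 601 TPM in WT and 157 and 116 TPM in Ovol3KO (-2.31 ± 0.14). On the same chromosome, the imprinted gene Mest had 20.8 and 20.6 TPM in WT and 69.6 and 87.8 TPM in Ovol3KO (1.87 ± 0.24), though the call of Mest ended in the test of recovered reads (1.89). The maternally expressed growth inhibitors Phlda2 and Cdkn1c had 510.4 and 427 TPM and 113 and 102 TPM in WT against 159.8 and 211 TPM and 36.3 and 51.5 TPM in Ovol3KO. Of 20 tested Polycomb and chromatin genes, 3 were higher and 0 lower (15% in either direction, near the 12.8% of all tested genes). They were Jarid2, a PRC2 partner, with 49.5 and 58.8 TPM in WT and 141 and 138 TPM in Ovol3KO (1.35 ± 0.13), Phf19, with 3.26 and 4.29 TPM against 17.5 and 23.9 TPM (2.18 ± 0.31), and Cbx7, a reader of the Polycomb mark in ESC (1.18 ± 0.19).

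Of 25 tested genes of collagens, laminins and integrins, 4 were lower and 0 higher (16% in either direction, near the 12.8% of all tested genes). With a pseudocount of 0.1, 8 of them were lower and 1 higher, and 1659 of all 14416 tested genes were lower and 784 higher. Fn1, which encodes the matrix protein fibronectin, had 432 and 366 TPM in WT and 134 and 123 TPM in Ovol3KO (-1.62 ± 0.13). Neural genes split, with 2 higher and 3 lower of 12 tested, and 1 was higher without the second Ovol3KO or the second WT library. Tubb3, a tubulin of neurons on chromosome 8, had 14.4 and 18.3 TPM in WT and 112 and 132 TPM in Ovol3KO (2.83 ± 0.17), and the neurofilament gene Nefm 27.1 and 24.5 TPM against 3.28 and 4.78 TPM (-2.43 ± 0.19). Other large rises were Pecam1, an adhesion gene of endothelium and of naive ESC, with 1.9 and 2.36 TPM in WT and 25.5 and 37.8 TPM in Ovol3KO (3.36 ± 0.34), and Gpx2, a glutathione peroxidase gene, with 0 and 0.59 TPM against 10.8 and 16.8 TPM (3.52 ± 0.28). Ovol3KO ESC had 66 and 75.3 TPM of Pecam1 and 187 and 209 TPM of Gpx2, above their PGCLC levels.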
